A study of Mus musculus with 65 samples.

Results

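Erythroblasts and megakaryocytes are sister cells of the bone marrow that descend from a shared progenitor, and this comparison set CTCF occupancy in maturing erythroblasts (ERY) against that in maturing megakaryocytes (iMk). CTCF was mapped by ChIP-seq, which sequences the chromatin fragments that an antibody pulls down, in 2 ERY libraries (1909 and 1926, here ERY replicates 1 and 2) and 2 iMk libraries (1908 and 1910, here iMk replicates 1 and 2). They are 4 of the 65 samples of the series, 34 of them CTCF libraries, chosen by the cell type in their titles. Both cell types came from C57BL/6 mice, by the study's methods from the bone marrow of males of 5 to 8 weeks, with no allele or treatment added in either. ERY cells were sorted as Ter119+, CD44+ and FSCLow, and iMk cells as Ter119-, Sca1-, CD41+, CD61+ and cKit-. Each list is an immunoprecipitation of sorted cells, and the labels do not say whether replicates came from separate mice. No expression was measured, so the cell types rest on the sort. Mean chromatin length was 250 and 276 bp in the ERY libraries and 257 bp in each iMk library, and all 4 were assessed as Pass. The labels tie 1 input library to both ERY lists and another to both iMk lists, so that input and cell type cannot be told apart.

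CTCF is a zinc finger protein that binds a long DNA motif, blocks enhancers from acting across it as an insulator, and anchors chromatin loops formed with cohesin. At the globin clusters, CTCF sites flank the genes and their enhancers. Most CTCF sites are shared between cell types, and methylation of CpGs in the motif can block binding.

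The motif matches of 13 sites are shown because the comparison turns on them. They are read from GRCm38 in the direction of the motif, which stands in capitals between flanks of 20 bases. The matrix behind them was learned from an LSK library and has the most common bases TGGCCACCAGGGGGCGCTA. The first 6 belong to sites classed ERY-only below, of which only that of Slc4a1 had no peak in either full iMk list. The next 6 belong to iMk-only sites, and the last to the strongest site of both.
Tal1, upstream, chr4:115047903-115047961, plus strand: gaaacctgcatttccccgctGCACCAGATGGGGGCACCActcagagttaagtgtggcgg
Slc25a37, promoter, chr14:69284957-69285015, plus strand: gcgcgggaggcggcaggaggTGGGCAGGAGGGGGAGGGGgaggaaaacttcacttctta
Add2, in the gene, chr6:86085667-86085725, minus strand: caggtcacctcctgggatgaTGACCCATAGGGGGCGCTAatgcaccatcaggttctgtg
Sptb, intron, chr12:76592379-76592437, plus strand: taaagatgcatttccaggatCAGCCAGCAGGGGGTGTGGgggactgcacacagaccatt
Paqr9, outside protein-coding genes, chr9:95540691-95540749, plus strand: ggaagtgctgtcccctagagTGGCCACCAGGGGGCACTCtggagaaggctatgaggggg
Slc4a1, upstream, chr11:102377308-102377366, plus strand: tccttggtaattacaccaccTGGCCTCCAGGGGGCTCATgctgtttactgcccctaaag
Itga6, intron, chr2:71812875-71812933, minus strand: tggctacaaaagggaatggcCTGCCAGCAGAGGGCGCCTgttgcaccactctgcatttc
P2rx1, intron, chr11:73001198-73001256, minus strand: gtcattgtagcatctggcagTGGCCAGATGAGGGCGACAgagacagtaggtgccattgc
Cebpa, promoter, chr7:35119214-35119272, plus strand: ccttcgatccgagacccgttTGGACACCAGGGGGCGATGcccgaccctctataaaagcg
Hoxa9, upstream, chr6:52240517-52240575, minus strand: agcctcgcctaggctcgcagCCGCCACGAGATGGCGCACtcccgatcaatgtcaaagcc
Fam69b, outside protein-coding genes, chr2:26646961-26647019, plus strand: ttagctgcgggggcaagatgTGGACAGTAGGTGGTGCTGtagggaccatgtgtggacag
Itga2b, downstream, chr11:102447702-102447760, minus strand: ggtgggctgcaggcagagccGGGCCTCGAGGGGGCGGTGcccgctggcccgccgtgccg
Sec22c, in the gene, chr9:121697905-121697963, plus strand: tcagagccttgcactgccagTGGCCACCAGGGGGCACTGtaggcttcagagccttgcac

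The ERY lists held 8284 and 6629 peaks, against 19612 and 21494 peaks in the iMk lists. Their peaks also had lower fold enrichment. The median fold enrichment over background, as MACS gave it, was 10.3 and 10.9 in the ERY libraries and 14.4 and 18.2 in the iMk libraries. Of the peaks, 39.1% and 36.1% in ERY and 71.6% and 67.3% in iMk had a −log10 p of at least 10, where the lists go down to 5. A motif match was held by 90.5% and 92.2% of ERY peaks, against 98.2% and 96.5% of iMk peaks. Promoters, taken as 1000 bp around transcript starts, held 17.8% and 20.97% of ERY peaks and 16.5% and 17.1% of iMk peaks. Median widths were 537 and 593 bp in ERY and 698 and 629 bp in iMk. The ERY and iMk values of peak number, motif share, promoter share and width did not overlap, nor did those of soft-masked bases, which mark repeats (18.6% and 18.5% of the bases of a peak on average in ERY, 19.99% and 21.3% in iMk). With 2 against 2 libraries a two-sided exact permutation test cannot go below p = 0.33, and each of these 5 tests gave p = 0.33 (n = 2 each). The depth of the libraries is unknown from peak lists, and its part in the shorter ERY lists was not tested.

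Peaks that shared at least 1 bp were merged into 25179 sites. Of these, 50 were ERY-only, called in both ERY libraries and neither iMk library (0.199% of the merged sites), and 9401 were iMk-only, called in both iMk libraries and neither ERY library (37.3%). A further 4552 sites (18.1%) were called in all 4 libraries and are called common. Most ERY peaks were also iMk peaks. Of the peaks of the ERY libraries, 85.2% to 88.6% were shared with either iMk list, while 27.3% to 35.9% of the peaks of either iMk list were shared with an ERY list. Within a type, 56.6% and 70.7% of the 2 ERY lists and 89.5% and 81.9% of the 2 iMk lists were shared. The ERY-only count rests on both ERY lists together: it was 689 without ERY replicate 1, 1102 without ERY replicate 2 and 82 without iMk replicate 2, whereas the iMk-only count stayed between 10580 and 13168 when any single library was left out.

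The comparison was repeated with the 6629 top peaks of each library by −log10 p, the length of the shortest list. The last peak inside this number had a −log10 p of 5.85 in ERY replicate 1 and 5.00 in ERY replicate 2, against 23.7 in iMk replicate 1 and 22.7 in iMk replicate 2, and the first peak outside had 5.85 in ERY replicate 1, 23.7 in iMk replicate 1 and 22.7 in iMk replicate 2. The merged sites then numbered 11419, of which 683 were ERY-only (5.98%), 1070 iMk-only (9.37%) and 2936 common (25.7%). The top peaks of the ERY libraries were shared with each other at 65.4%, and with those of the iMk libraries at 58.9% to 63.8%. The top peaks of the 2 iMk libraries were shared at 77.7% and 77.6%. Leaving out ERY replicate 1, ERY replicate 2, iMk replicate 1 or iMk replicate 2 gave 2153, 1862, 1038 or 1026 ERY-only sites. Leaving out ERY replicate 1, iMk replicate 1 or iMk replicate 2 gave 1761, 1872 or 1766 iMk-only sites.

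**Figure D1:**
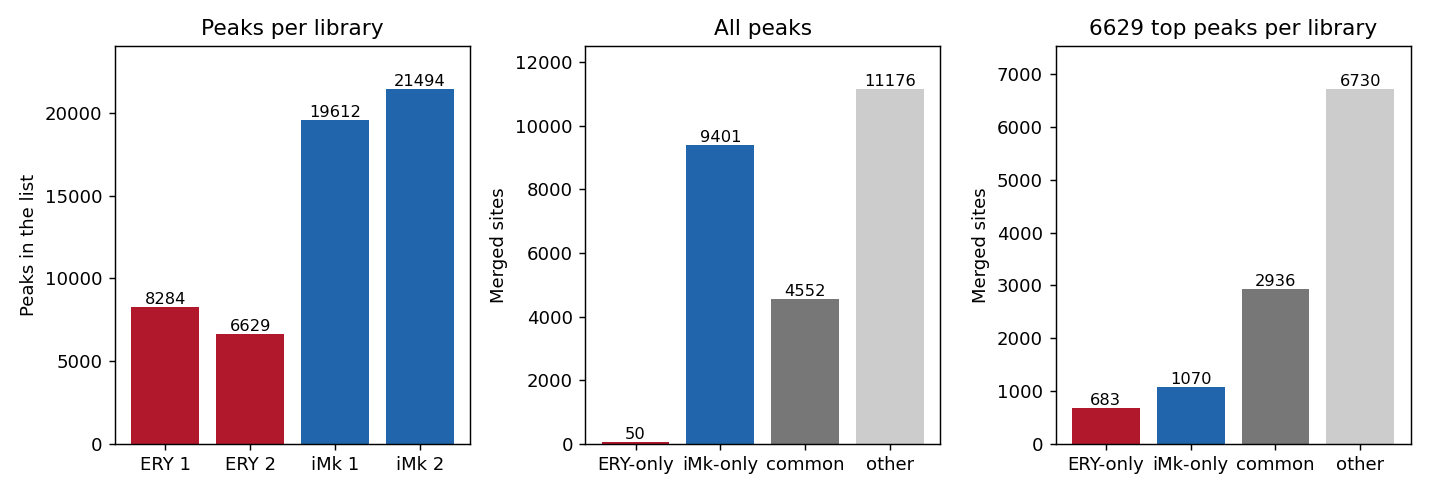
Peaks in each of the 4 lists (left) and merged sites of each class with all peaks (middle) and with the 6629 top peaks of each library (right). With all peaks 50 sites were ERY-only and 9401 iMk-only, against 683 and 1070 with equal numbers.

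What ERY-only means changes with the setting. Of the 683 ERY-only sites at equal numbers, 652 (95.5%) were called in at least 1 of the full iMk lists and 605 (88.6%) in both, so they are sites that stand higher in the order of ERY peaks than in that of iMk peaks. Their median rank was 3949 and 3689 in the full ERY lists and 10038 and 10372 in the full iMk lists. Their fold enrichment was not higher in ERY, with medians of 10.7 and 10.9 in ERY and 14.2 and 18.2 in iMk at the 605 sites, and both ERY folds exceeded both iMk folds at 15 of the 605 (2.48%), against 0.351% of all sites called in all 4 full lists. Both ERY folds lay below both iMk folds at 368 of the 605 (60.8%), against 86.9% of all such sites. The choice by rank favours sites with relatively high ERY folds, and all such sites include the 605. These contrasts with all such sites are therefore no separate evidence. Of the 1070 iMk-only sites at equal numbers, 957 (89.4%) were in neither full ERY list. This was largely fixed in advance, because the full list of ERY replicate 2 is its 6629 top peaks. That of ERY replicate 1 holds only 8284 peaks, against 19612 and 21494 in the iMk lists.

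The 50 ERY-only sites of the full lists fell into unlike groups. Repeats made up at least 50% of the bases in 18 of them, 16 of which held no motif match, and 24 sites were both outside repeats and matched by the motif. Windows of the same length 10 kb away held a match for 17 of the 50. Repeat sites included wide peaks near Cbwd1 (chr19:24914552-24919305, −log10 p of 9.69 and 158 in ERY) and Cyp8b1 (chr9:121929360-121932109, 5.08 and 103), for which the 2 ERY replicates were far apart. Among the sites with a motif outside repeats were one in Sptb, the gene of beta spectrin of the red cell skeleton (chr12:76649910-76650426, fold of 8.08 and 8.54 in ERY), one at the start of Plek2, a pleckstrin-like gene named here after its values were seen (chr12:78906643-78907306, 8.08 and 10.9), and one upstream of Slc4a1 described below. Of those 24 sites, the full list of CFUE cells, earlier erythroid cells, held 14 and that of CFUMk cells, earlier megakaryocytic cells, held 20. The lists differ in length, with 11990 peaks in CFUE and 36481 in CFUMk.

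Nearly all sites held a motif match at equal numbers. A match was held by 94.3% of ERY-only sites (95% Wilson interval 92.3 to 95.8, n = 683), 99.3% of iMk-only sites (98.5 to 99.6, n = 1070) and 99.5% of common sites (99.1 to 99.7, n = 2936). Intervals cover counting error only. The median score of the matches was 18.8 bits in ERY-only, 19.2 in iMk-only and 20.5 in common sites, and a CpG stood in 49.1% of the matches of ERY-only, 55.4% of iMk-only and 60.8% of common sites, the dinucleotide at which CTCF binding can be blocked by methylation. Windows of the same length 10 kb away held a match for 38.1% of ERY-only, 44.1% of iMk-only and 54.6% of common sites. At least 50% of the bases were repeats in 13.03% of ERY-only sites, against 2.71% of iMk-only and 2.38% of common sites. Promoters held 19.3% of ERY-only sites (16.5 to 22.5), 16.7% of iMk-only sites (14.6 to 19.1) and 24.9% of common sites (23.4 to 26.5), and protein-coding genes held 55.2% of ERY-only, 50.2% of iMk-only and 56.7% of common sites. With all peaks the 50 ERY-only sites stood apart, with a match in 52% and repeats in 36%, against 98.3% and 7.77% of iMk-only sites. Windows 10 kb away then held a match for 34% of ERY-only and 37.2% of iMk-only sites. Sites are not replicates, and no test was run over them.

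Libraries that had no part in choosing the sites were then asked how many of them they called, again with their 6629 top peaks. The single CFUE library, sorted with the same markers as ERY but as larger cells, called 54.0% of ERY-only and 18.9% of iMk-only sites. The single CFUMk library called 22.7% of ERY-only and 76.5% of iMk-only sites. Common sites were called at 84.9% in CFUE and 91.6% in CFUMk, so the 2 libraries differed less there.

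Libraries of G1E-ER4+E2 were compared next. This line comes from mouse erythroid cells without GATA1, and estradiol switches on the GATA1 fusion it carries. The 14 libraries assessed as Pass called 35.4% to 42.0% of ERY-only sites (median 39.0%) and 37.7% to 46.2% of iMk-only sites (median 43.8%). The 6 libraries of primary cells outside the erythroid arm (2 of LSK stem and progenitor cells, and CMP, MEP, GMP and CFUMk progenitors, CMP and GMP being assessed as Low pass) called 21.2% to 26.4% of ERY-only sites (median 22.6%) and 54.95% to 76.5% of iMk-only sites (median 61.8%). Outside the erythroid arm means other than CFUE and ERY, and these 6 include MEP, the progenitor from which both lineages arise. The ranges of the 2 sets did not overlap for either class.

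The percent of ERY-only sites called minus that of iMk-only sites was -4.01 ± 1.91 percentage points in G1E-ER4+E2 (SD, n = 14) and -40.4 ± 8.16 in the other primary libraries (SD, n = 6). The 36.4 points between them gave p = 2.58e-05 in a two-sided exact permutation test over 38760 splits, the smallest p these libraries allow, and 0.000181 after Benjamini-Hochberg adjustment over the 7 tests computed. With the full lists the values were -31.9 ± 6.00 points (SD, n = 14) and -47.7 ± 13.3 points (SD, n = 6), a difference of 15.8 points (exact permutation p = 0.00196, adjusted 0.00686). In the full lists CFUE called 62% of the 50 ERY-only sites and 14.3% of the 9401 iMk-only sites, whereas CFUMk called 46% of the ERY-only and 99.8% of the iMk-only sites. The full lists held 10655 to 21986 peaks in G1E-ER4+E2 and 15002 to 36481 in the other primary libraries. The CFUE list held 11990 peaks and the CFUMk list 36481, and the part of list length in full-list calls was not tested. A cell line and its lineage cannot be told apart in this test, and the labels do not show whether the libraries of either set are independent cultures or mice. The G1E-ER4+E2 libraries all come from the same line. By the paper, part of them came from batches of its cells that were sheared to different lengths. The p counts each library as a replicate, so it does not measure a spread between cultures or animals.

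**Figure D2:**
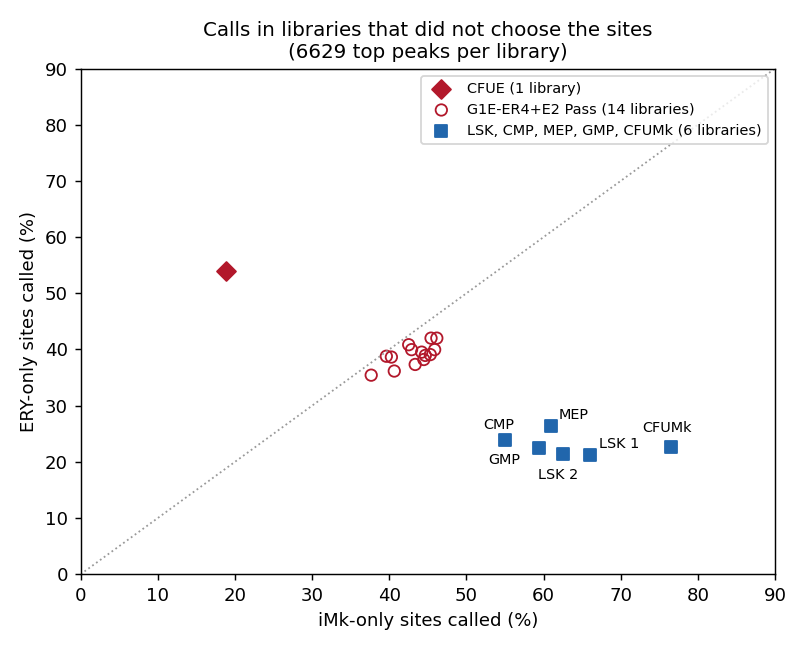
Percent of iMk-only (x axis) and ERY-only (y axis) sites at equal numbers that each library outside the comparison called with its 6629 top peaks; the dotted line marks equal percents. CFUE lies above the line at 54.0% of ERY-only sites, the 14 G1E-ER4+E2 libraries lie just below it, and the 6 other primary libraries far below.

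Genes of the 2 lineages were examined through lists of regulators of both lineages (20 genes), erythroid regulators (16), genes of hemoglobin, heme, iron and the red cell membrane (39 of 40 found), megakaryocyte regulators (20) and platelet genes (40). A gene counted where a site lay in it or within 10 kb. At equal numbers, 12 of the 75 genes of the first 3 lists had an ERY-only site (16%), against 3.4% of all 21884 protein-coding genes, and 1 had an iMk-only site (1.33%), against 4.58%. The 20 regulators of both lineages were pooled only on this side, although they belong to both. Of them, 3 had an ERY-only site (15%) and 0 an iMk-only site. Of the 60 megakaryocyte and platelet genes, 0 had an ERY-only site and 3 an iMk-only site (5%), which is near the share of all genes. That nearness depends on the number of top peaks, since 5 of the 60 (8.33%) had an iMk-only site with 5000 top peaks, against 3.59% of all genes, and 6 (10%) with 3000, against 2.51%. The genes of the first 3 lists with an ERY-only site numbered 23 without ERY replicate 1 (30.7%), against 9.59% of all genes. Without ERY replicate 2 they numbered 15 (20%), against 8.05%. Without ERY replicate 1, 5 of the 60 megakaryocyte and platelet genes had an ERY-only site (8.33%) and 5 an iMk-only site, against 9.59% and 7.42% of all genes. Without ERY replicate 2, 6 had an ERY-only site (10%) and 7 an iMk-only site (11.7%), against 8.05% and 6.58% of all genes. Within 50 kb, an ERY-only site was held by 38.5% of hemoglobin, heme, iron and membrane genes, 20% of regulators of both lineages and 18.8% of erythroid regulators, against 8.23% of all genes. Lists of other cells were as high as these regulators at 50 kb, with 25% of 12 stem and progenitor genes and 20% of 15 lymphoid genes, while granulocyte and monocyte genes had 6.25%, megakaryocyte regulators 5% and platelet genes 2.5%. The lists with erythroid genes also had more common sites, in 30% of regulators of both lineages, 25% of erythroid regulators and 20.5% of hemoglobin, heme, iron and membrane genes, against 14.6% of all genes, 20% of megakaryocyte regulators and 12.5% of platelet genes. Their genes were somewhat longer, with median lengths of 21.4, 26.6 and 23.3 kb against 17.4 kb over all genes, while megakaryocyte regulators measured 118 kb and platelet genes 16.4 kb. The part of gene length in these shares was not tested.

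**Figure D3:**
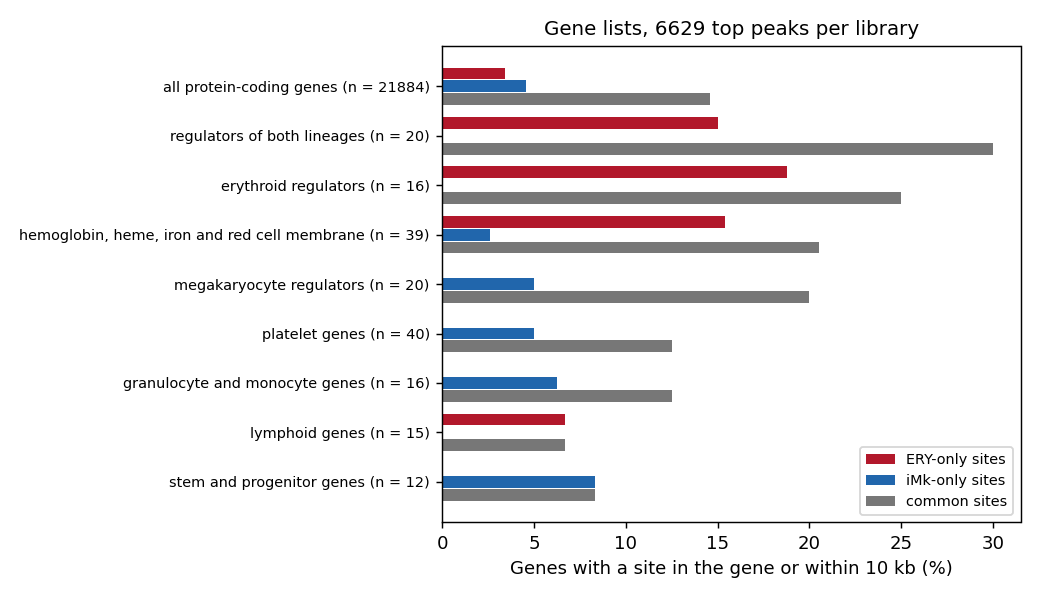
Percent of the genes of each list with an ERY-only, iMk-only or common site in the gene or within 10 kb, from the 6629 top peaks of each library. The top row is all protein-coding genes (3.4% ERY-only, 4.58% iMk-only), and the 3 lists with erythroid genes reach 15% to 18.8% for ERY-only sites.

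Among the regulators of both lineages, Tal1, a basic helix-loop-helix factor that blood formation and red cell maturation need, had an ERY-only site 8528 bp upstream (chr4:115047502-115048294). It ranked 1220 and 1593 in the ERY lists and 14008 and 13162 in the iMk lists, at folds of 12.9 and 11.1 in ERY and 9.79 and 17.1 in iMk. The class fixes the order of the ranks, and the folds of ERY and iMk overlapped. CFUE and all 14 G1E-ER4+E2 libraries held it among their top peaks, and CFUMk only in its full list. Lyl1, a close relative of Tal1, had a site 1491 bp upstream, inside Trmt1 (chr8:84699572-84700359), with ranks of 2764 and 2931 in ERY and 17485 and 18324 in iMk and folds of 14.3 and 11.2 in ERY and 8.40 and 11.5 in iMk. In Ikzf1, a zinc finger regulator of lymphoid cells that also acts in red cells, a site in an intron (chr11:11742712-11743385) ranked 4697 and 1604 in ERY and 8671 and 6895 in iMk. Its folds were lower in ERY, at 10.5 and 14.1, than in iMk, at 15.8 and 28.8. CFUE held both sites among its top peaks, and CFUMk only in its full list.

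Of the erythroid regulators, Sox6, which silences embryonic globin and promotes maturation, had an ERY-only site in an intron (chr7:116032936-116033495) and another 1589 bp upstream (chr7:116039959-116040811). The first ranked 1447 and 5482 in ERY and 8406 and 11855 in iMk, and the second 4561 and 1142 in ERY and 13579 and 10756 in iMk. Each ranked high in 1 ERY replicate and low in the other. Trim58, a ubiquitin ligase of late erythroblasts, had a site in its body (chr11:58643312-58643922) with folds of 8.65 and 23.6 in ERY and 18.4 and 22.04 in iMk, so that the ERY values enclose both iMk values. Downstream of Xpo7, a nuclear export receptor of erythroblasts, a pair of sites lay beside and in Npm2. The first (chr14:70645449-70646023), which is also 9688 bp upstream of Dmtn, the gene of the membrane skeleton protein dematin, ranked 3607 and 5338 in ERY and 17545 and 16858 in iMk. The second (chr14:70646874-70647575) ranked 842 and 5422 in ERY and 7199 and 8113 in iMk. CFUE held only the second, while CFUMk held both in its full list.

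The remaining erythroid genes act in heme synthesis, iron transport and the membrane. Uros, the uroporphyrinogen III synthase of heme synthesis, had a site downstream (chr7:133684025-133684708) that lies mostly in repeats (78.7%) and was at the edge of the top peaks in ERY replicate 1, with ranks of 6569 and 1930 in ERY and 11503 and 10302 in iMk. Slc25a37, the mitochondrial iron importer mitoferrin 1, had one over its start (chr14:69284863-69285402), with folds of 11.02 and 6.99 in ERY and 8.26 and 13.4 in iMk. Its motif match, shown above, scored 14.4 bits. Slc11a2, an iron transporter, had a site downstream, inside Higd1c and without a motif match (chr15:100377735-100378466), with folds of 10.02 and 11.2 in ERY and 13.4 in iMk replicate 2, and no peak in iMk replicate 1.

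Sptb, of beta spectrin, had a second site in an intron (chr12:76592012-76592766), ranking 2752 and 5015 in ERY and 9583 and 11363 in iMk. In Add2, of beta adducin, which caps the actin of the membrane skeleton, a site over an exon and a transcript start (chr6:86085256-86086053) had folds of 18.4 and 15.5 in ERY and 11.8 and 14.3 in iMk. It was the only one of the 13 distinct ERY-only sites of these lists at which both ERY folds lay above both iMk folds. All 14 G1E-ER4+E2 libraries held it among their top peaks, and CFUMk and the 5 other primary libraries outside the erythroid arm only in their full lists. CFUE did not call it in either setting.

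Of these 13 sites 12 held a motif match, 12 were in both full iMk lists, and 3 lay within 1000 bp of a transcript start. The shares of all ERY-only sites at equal numbers were 94.3%, 88.6% and 19.3%. With top peaks CFUE called 10 of them and CFUMk 2, beside 54.0% of all ERY-only sites in CFUE and 22.7% in CFUMk. In the full lists CFUE called 11 and CFUMk all 13. Of the sites common with all peaks, the full lists called 86.4% in CFUE and 99.96% in CFUMk, so these counts say little about the 13. At least 1 full G1E-ER4+E2 list held 12 of the 13, the exception being that of Slc25a37. Each of the 14 full lists assessed as Pass called 79.2% to 95.6% of the sites common with all peaks. The shares of all ERY-only sites at equal numbers in these full lists were not computed.

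**Figure D4:**
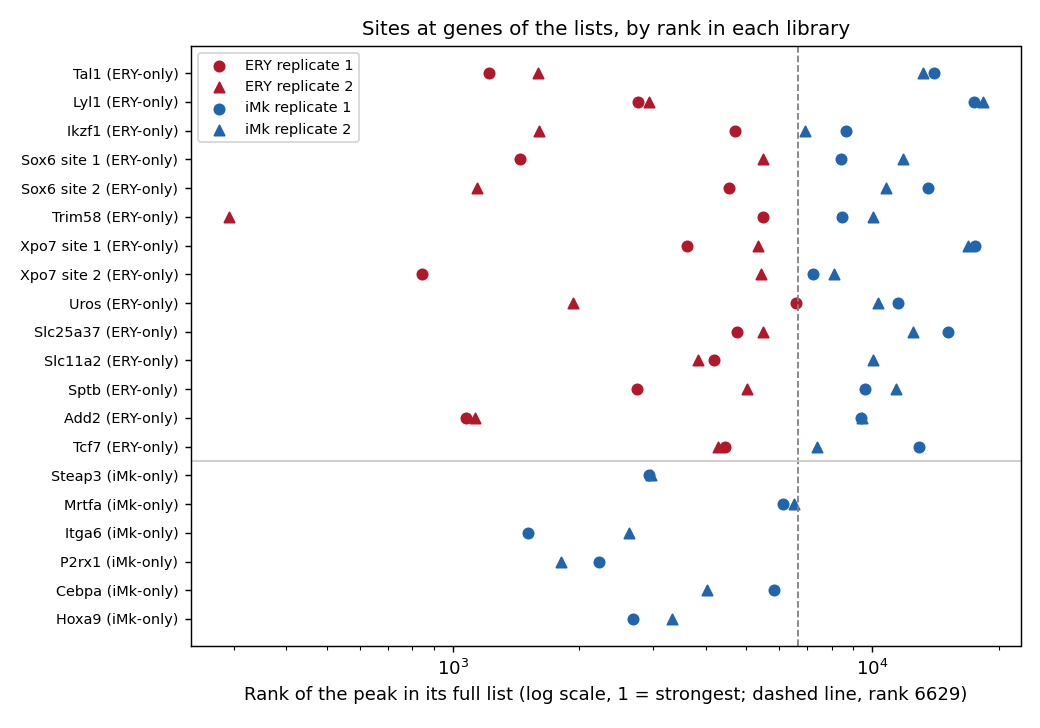
Rank of each ERY-only and iMk-only site at a gene of the lists in the 4 full lists (log axis, 1 is the strongest peak); the dashed line is rank 6629. By the rule that chose them, the ERY-only sites lie left of the line in both ERY libraries and right of it, or absent, in iMk. The iMk-only sites have no ERY point, which the rule fixes for ERY replicate 2, whose full list ends at the dashed line.

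The iMk-only sites of listed genes at equal numbers had no peak in either full ERY list. For ERY replicate 2 this is the rule itself, since its full list is its top peaks. The list of ERY replicate 1 ends at rank 8284, so the lack of a peak does not show that CTCF is absent. Itga6, an integrin subunit of platelets that binds laminin, had one in an intron (chr2:71812485-71813355) with ranks of 1508 and 2626 and folds of 29.4 and 38.3 in iMk. P2rx1, the ATP-gated channel of platelets, had one in an intron 2122 bp past its start (chr11:73000844-73001606), with ranks of 2226 and 1806 and folds of 31.0 and 41.2 in iMk. Mrtfa, a coactivator of SRF in megakaryocytes, had one near the limit of the top peaks (chr15:81049468-81050305, ranks of 6120 and 6512). CFUMk held the sites of Itga6 and P2rx1 among its top peaks and that of Mrtfa only in its full list, and CFUE called none of the 3 in either setting. All 14 full G1E-ER4+E2 lists held each of the 3. The 1 iMk-only site of an erythroid gene lay in Steap3, a ferrireductase of erythroblasts (chr1:120196924-120197816), with folds of 24.7 and 28.8 in iMk, and both CFUE and CFUMk called it.

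With all peaks 0.151% of all protein-coding genes had an ERY-only site within 10 kb, and of the 5 lists Sptb alone, at the site named above. Common sites reached 20.7% and iMk-only sites 30.2% of all protein-coding genes. The iMk-only sites reached 30% of regulators of both lineages, 18.8% of erythroid regulators, 17.9% of hemoglobin, heme, iron and membrane genes, 45% of megakaryocyte regulators and 30% of platelet genes. Among the regulators of both lineages these were Mafg, Mafk, Myb, Nfe2, Runx1 and Stat5b. The megakaryocyte regulators were Arid3a, Dyrk1a, Erg, Fli1, Meis1, Mrtfa, Mylk, Nbeal2 and Srf, and the platelet genes Cd9, F13a1, F5, Fermt3, Gp1ba, Itga2b, Itga6, P2rx1, Plek, Selp, Tbxas1 and Vwf. The erythroid lists included Bnip3l, Klf13 and Rb1, and Bpgm, Dmtn, Epb41, Fech, Rhag and Steap3. The genes of the 5 lists had 48 distinct iMk-only sites, all with a motif match, beside 98.3% of all iMk-only sites. In the full lists CFUMk called all 48 and CFUE 9, beside 99.8% and 14.3% of all iMk-only sites. Of the 48, 40 lay below rank 6629 in both iMk lists. ERY replicate 2 has no peaks below that rank, and the list of ERY replicate 1 ends at 8284.

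Genes of other blood cells were followed too. The site at the start of Cebpa, the regulator of granulocytes, was iMk-only (chr7:35118874-35119639), at folds of 24.15 and 38.3 in iMk. So was a site 9474 bp upstream of Hoxa9, a stem and progenitor gene, in Hoxa10 and over a transcript start (chr6:52240172-52240954), at 25.2 and 31.6 in iMk. In the full lists all 6 primary libraries outside the erythroid arm, CFUMk among them, called both, and CFUE and the 14 G1E-ER4+E2 libraries called neither. Tcf7, of T cells, had an ERY-only site in its body (chr11:52253800-52254496), at folds of 12.4 and 11.6 in ERY and 10.5 and 26.8 in iMk.

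The ERY-only sites highest in both ERY lists at equal numbers were nearest to Tmem270, Paqr9, Ccdc84, Phospho2, Reep4, Rnf145, Ints1, Stim1, Gm20517 and Cdh4. That of Paqr9 (chr9:95540362-95541098) had folds of 17.1 and 22.2 in ERY and 7.78 and 9.27 in iMk, and ranks of 566 and 163 in ERY and 15769 and 18149 in iMk. Its motif, shown above, scored 27.1 bits and holds no CpG. That of Tmem270 (chr5:134906897-134907752) had folds of 27.2 and 22.5 in ERY and 13.7 and 16.3 in iMk. With top peaks CFUE called all 10 and CFUMk 6, beside 54.0% and 22.7% of all ERY-only sites. The 10 were picked for their high ranks. Both ERY folds exceeded both iMk folds at the sites of Tmem270, Paqr9 and Ccdc84. At that of Stim1, the calcium sensor of the endoplasmic reticulum, they overlapped, at 15.7 and 24.9 in ERY and 20.1 and 22.3 in iMk.

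The iMk-only sites highest in both iMk lists were nearest to Fam69b, Trappc6b, Zkscan17, Snx10, Sorl1, Nid1, Pth, Ms4a15, Spdye4c and Gm49486. That of Fam69b (chr2:26646381-26647523) ranked 11 and 9 in the iMk lists, at folds of 51.4 and 83.4 in iMk, and had no ERY peak. With top peaks all 14 G1E-ER4+E2 libraries called it and CFUE did not. That of Trappc6b (chr12:59034707-59039222) is a wide peak of which 94.2% is soft-masked. At Nid1, of the basement membrane protein nidogen, ERY replicate 1 had a peak of rank 6864, just outside the top peaks. With top peaks CFUMk called all 10 sites and CFUE 1, that of Pth, beside 76.5% and 18.9% of all iMk-only sites.

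The strongest common sites, by median rank in the 4 lists, were nearest to Sec22c, Snx29, Pink1, Nemp1 and Dus3l. The site in Sec22c (chr9:121697192-121698372) ranked 1 and 1 in ERY and 2 and 1 in iMk, at folds of 51.4 and 81.6 in ERY and 68.5 and 120.2 in iMk. The site in Snx29 (chr16:11423085-11424480) ranked 20 and 5 in ERY and 1 and 2 in iMk.

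Slc4a1, of the red cell anion exchanger band 3, and Itga2b, of the platelet integrin subunit CD41 by which the iMk cells were sorted, are neighbours on chromosome 11. Upstream of Slc4a1, 92851 bp past the start of Itga2b, lay a site that was ERY-only with all peaks and with equal numbers (chr11:102376944-102377598), at folds of 11.2 and 9.55 and ranks of 3743 and 3565 in ERY. CFUE called it, and so did CFUMk and 6 of the 14 G1E-ER4+E2 libraries in their full lists. Downstream of Itga2b, over the start of Fam171a2, lay a site that was iMk-only with all peaks (chr11:102447479-102448035), at folds of 9.97 and 15.3 in iMk. Its ranks of 12223 and 13938 in iMk lie past the ends of both ERY lists, and it was not among the top peaks. In the full lists CFUE called this site too, as did all 6 primary libraries outside the erythroid arm, CFUMk among them. None of the 14 G1E-ER4+E2 libraries did. Between them the strongest site lay in Grn (chr11:102434165-102435135) and was common, at folds of 13.96 and 20.2 in ERY and 23.6 and 34.5 in iMk. The other 6 sites of the window were called in 1 to 4 libraries, and the ERY replicates differed at 5 of them.

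**Figure D5:**
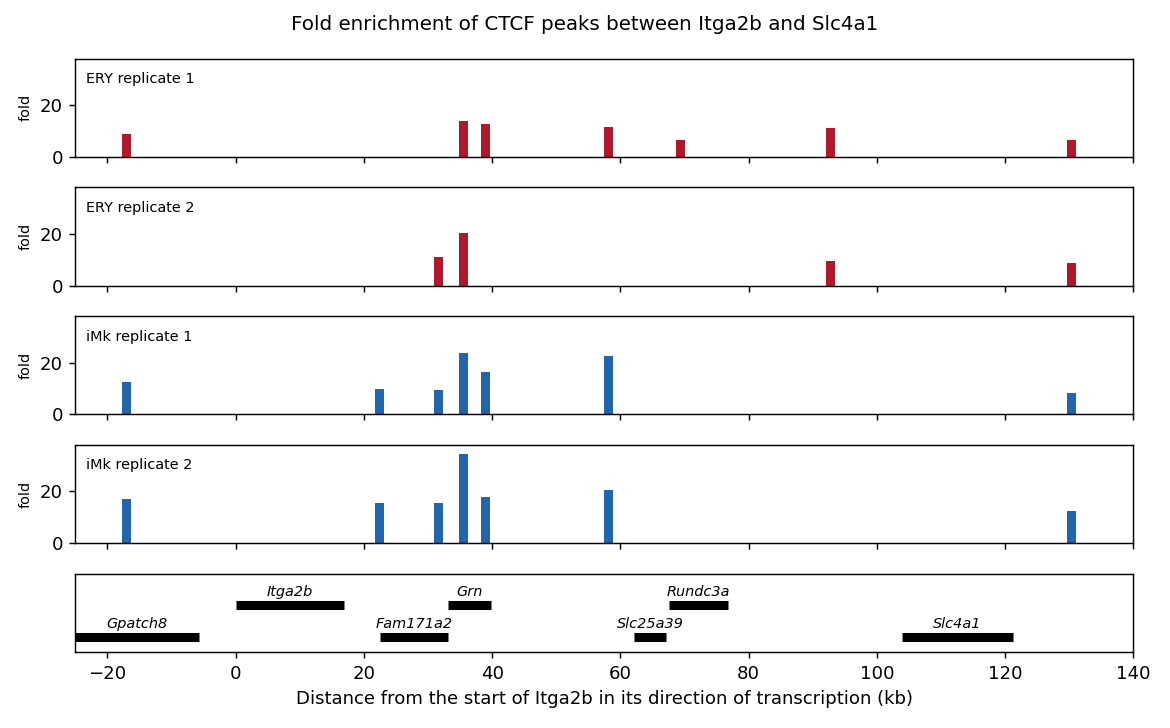
Fold enrichment of CTCF peaks in each library around Itga2b and Slc4a1, by distance from the start of Itga2b in kb, with the genes as bars below. The peak near 93 kb, upstream of Slc4a1, is present in both ERY libraries and neither iMk library, and that near 22 kb in both iMk libraries and neither ERY library. The latter has iMk ranks past the ends of both ERY lists.

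At the alpha globin genes and the neighbouring Nprl3, whose introns hold their enhancers, 5 sites within 20 kb of the genes were common in the full lists. The strongest, in Nprl3 (chr11:32238195-32239110), had folds of 21.1 and 25.4 in ERY and 23.4 and 49.7 in iMk. Its neighbour (chr11:32236833-32237719) was ERY-only at equal numbers, with ranks of 5569 and 1185 in ERY and 12027 and 12387 in iMk, at folds of 8.28 and 11.3 in ERY and 10.1 and 12.8 in iMk. Sites over the theta globin genes Hbq1b (chr11:32286506-32287402) and Hbq1a (chr11:32299716-32300632) were common in both settings. At beta globin, within 65 kb of the genes, no site was called in both ERY lists and neither iMk list in full. One site (chr7:103912834-103913574) was ERY-only at equal numbers, at folds of 9.09 and 11.4 in ERY and 12.5 in iMk replicate 2.

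Gfi1b and Zfpm1 are regulators that both lineages need, Zfpm1 being the GATA1 cofactor FOG1. Just upstream of Gfi1b (chr2:28622321-28623146) a common site had folds of 12.4 and 16.8 in ERY and 17 and 30.1 in iMk. Of the 8 sites within 20 kb of Gfi1b, 2 were common and the others were called in 1 to 3 libraries, with no ERY-only or iMk-only site among them. Zfpm1 had 3 common sites, of which that near its end (chr8:122332953-122333820) had folds of 14.5 and 16.2 in ERY and 25.2 and 46.1 in iMk. At Gp1bb, of the platelet receptor for von Willebrand factor, a pair of sites was called in both iMk lists and 1 ERY list each, at folds of 10.3 in ERY replicate 1 and 19.95 and 20.1 in iMk for one (chr16:18617544-18618301), and 13.2 in ERY replicate 2 and 17.3 and 22.04 in iMk for the other (chr16:18626268-18627113).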

How the data were processed

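Reads were aligned by the authors to mm10 (GRCm38) with Bowtie, and MACS gave a peak list per library. Versions in the submitters' notes are bcl2fastq 1.8.4 and Bowtie 1.0.0, while the study's methods give an earlier Bowtie. The deposited lists give each peak's fold enrichment (a ratio to background) and −log10 p. The FDR column was not used. Peaks sharing at least 1 bp were merged. Equal numbers are the 6629 top peaks of each list by −log10 p. Motifs were scanned on GRCm38.p6 with a matrix of 19 bp, fitted over 15 rounds to the central 200 bp of 2000 top peaks of LSK replicate 2, at p = 0.0001 per position, or 7.60 bits. Genes and promoters came from GENCODE M21 basic. Of 178 listed genes 177 were found, 2 through older symbols, and Ahsp was not used here. One listed gene is not reported by name. Groups of libraries were compared by exact permutation tests, computed with Python 3.11.15, numpy 2.4.6 and pandas 2.3.3 and tested on simulated data. Named were list genes with an ERY-only or iMk-only site, the 10 highest sites of each class, the 5 highest common sites and the sites of 6 loci. Plek2, Cbwd1 and Cyp8b1 were added after their values were seen. The members and lists were chosen with earlier results of these data known. Alternatives were the overlap, the −log10 p limit, the number and ranking of top peaks, the motif threshold and window, the promoter and gene windows, and the libraries.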

Additional observations from a re-analysis of the deposited data

Results flagged for a closer look

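The difference between the percent of ERY-only and of iMk-only sites called was itself unlike in 2 sets of libraries. At equal numbers it was 36.4 percentage points higher in the 14 G1E-ER4+E2 libraries than in the 6 other primary libraries outside the erythroid arm, and 15.8 points higher with all peaks, with adjusted p of 0.000181 and 0.00686 in the exact permutation tests given above. All 14 G1E-ER4+E2 values at equal numbers lay above all 6 others. The tests count each library of the line as a replicate, which does not measure a spread between cultures or animals.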

How the results depend on the processing

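The ERY-only count with all peaks was 9 where only peaks with a −log10 p of 10 or more were used, and 74 to 1102 with a library left out. At equal numbers it was 451 with 3000 top peaks, 31 where absence from the full iMk lists was asked, and 1026 to 2153 with a library left out. The iMk-only count was 10580 to 13168 with a library left out, and at equal numbers 563 with 3000 top peaks and 1508 to 1872 with a library left out. At a motif p of 1e-05, 34% of ERY-only and 89.8% of iMk-only sites held a match with all peaks, and 83.5% and 95.1% at equal numbers. In the middle 200 bp, 91.6% of iMk-only sites held one with all peaks, and 85.4% of ERY-only and 89.9% of iMk-only sites at equal numbers. Promoters of 2500 bp held 23.7% of iMk-only sites with all peaks, and 28.8% of ERY-only and 25.98% of iMk-only sites at equal numbers. Within 50 kb, 38.5% of hemoglobin, heme, iron and membrane genes had an ERY-only site at equal numbers, against 8.23% of all genes. The genes of the 3 lists with erythroid genes with an ERY-only site numbered 15 to 23 with a library left out, and the megakaryocyte and platelet genes with an iMk-only site 3 to 7, and 5 with 5000 and 6 with 3000 top peaks (8.33% and 10%, against 3.59% and 2.51% of all genes). These gene counts by setting were chosen after seeing the data.

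The difference in calls between G1E-ER4+E2 and the other primary libraries kept its direction and its side of 0.05 in every alternative run. It was 13.4 to 24.3 points with all peaks and 22.9 to 33.5 points at equal numbers with a library left out. It was 36.7 points at equal numbers with motif-bearing sites outside repeats and 33.7 points without CFUMk, both chosen after seeing the data. No paired analysis was possible because the labels give each library a number of its own, and no number is shared between ERY and iMk. Peak lists hold no read depth, and 2 libraries a group limit every value.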

Other observations

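Chromosome X held 0.616% and 0.588% of the peaks of the ERY lists and 1.72% and 1.76% of those of the iMk lists. Among the 6629 top peaks the order turned round, with 0.498% and 0.588% in ERY and 0.272% and 0.256% in iMk. Both cell types came from male mice. In the full lists the counts behind these shares were 51 and 39 peaks in ERY and 338 and 379 in iMk. Among the top peaks they were only 33 and 39 in ERY and 18 and 17 in iMk.

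MEP, the progenitor from which both lineages arise, called 26.4% of ERY-only and 61.0% of iMk-only sites at equal numbers. It is 1 library, and its values were not tested against those of CFUE or CFUMk.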
